A study of Mus musculus with 21 samples.

Results

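The genes followed here in the mouse forelimb bud (FB) are 8 target genes of the coactivator Yap known from other cell types. They are *Ccn1* (formerly *Cyr61*), *Ccn2* (formerly *Ctgf*), *Ankrd1*, *Amotl2*, *Lats2*, *Ajuba* (formerly *Jub*), *Axl* and *Crim1*. Whether Yap acts on these genes in the FB was not tested. They were chosen by name, and each was read from the array feature assigned to that gene alone, taking the feature with the highest mean where a gene has several. Of the 8 genes, 7 were found in this way among 14860 genes, each with 1 feature, and *Crim1* had no such feature and was not analysed here. FBs of Swiss mouse embryos were hybridised to Affymetrix Mouse Exon 1.0 ST arrays, on 21 arrays in 7 groups of 3 biological replicates. At E10.5 (E marks the embryonic day) the groups were FBs of uncultured embryos (0 h) and of embryos kept for 1, 3 or 6 h in whole-embryo culture, outside the mother, in rotating bottles. At E12.5 they were FBs of uncultured embryos and of embryos cultured for 1 or 3 h. No gene was altered and no agent was added in any group. The FB is a whole tissue, so fewer cells of a type and less RNA per cell cannot be told apart, and how many embryos each array holds is not given in the sources used here.

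Yap, encoded by *Yap1*, and its close relative Taz, encoded by *Wwtr1*, carry no DNA-binding domain of their own and act on genes through the Tead transcription factors. The Hippo kinases Lats1 and Lats2 phosphorylate both coactivators, which are then held in the cytoplasm or degraded, while stretch, spreading and actin tension let them enter the nucleus. In many cell types the targets include secreted matrix proteins, a cell surface receptor and several inhibitors of Yap itself, which form a negative feedback. In embryos the pathway is best known for its part in organ size and in the response of cells to mechanical load.

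To show where the Tead factors could bind, the promoter windows of these genes were searched for the Tead core motif GGAATG and its reverse complement CATTCC. Each RefSeq window (build GRCm38.p6) runs from 250 bases before to 50 after a transcript start. Of the 6 measured genes with a window, 5 held the motif before the start, and *Ccn2* had no window. Over all genes with a window, 14.4% held it before a start, and 12.6% of all 32851 windows did. A match is a description of the letters and not a binding site. The stretches that hold the motif are given in the direction of transcription, with the motif in capitals.
Ccn1, chr3:145650058-145650113, minus strand: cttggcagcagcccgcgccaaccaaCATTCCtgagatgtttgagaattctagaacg
Ankrd1, chr19:36119937-36120079, minus strand: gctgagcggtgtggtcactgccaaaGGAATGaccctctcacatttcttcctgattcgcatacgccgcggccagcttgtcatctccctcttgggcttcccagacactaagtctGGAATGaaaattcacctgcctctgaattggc
Amotl2, chr9:102717727-102717756, plus strand: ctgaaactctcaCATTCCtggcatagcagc
Ajuba, chr14:54577795-54577872, minus strand: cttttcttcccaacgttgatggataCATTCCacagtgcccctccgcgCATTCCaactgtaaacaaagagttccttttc
Axl, chr7:25788936-25788983, minus strand: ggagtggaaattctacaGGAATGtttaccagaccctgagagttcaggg

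The motif began 103 bases before the start in *Ccn1*, 65 in *Amotl2* and 233 in *Axl*. *Ankrd1* held it at 210 and 123 bases and *Ajuba* at 186 and 164 bases before the start. The starts used by RefSeq for the *Amotl2* and *Axl* windows lie inside the longer span of each gene. The distances of these motifs are thus not counted from the outer end of the gene. *Lats2* has 2 windows, with no motif before either start and 1 motif after the start in 1 of them. With both sides of the start counted, all 6 measured genes with a window held the motif, against 16.6% of all genes with a window. The motif TGANTCA of the AP-1 factors, searched with C or G at its open position, was in none of these windows, against 5.2% of all windows.

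The mean of the 14 measured markers of limb mesenchyme lay between 9.44 and 10.33 on the log2 scale on every array. At E10.5 it ran from 10.11 to 10.24 without culture, from 9.47 to 10.05 after 1 h, from 9.84 to 10.17 after 3 h and from 9.44 to 9.63 after 6 h. In turn 4, 1 and 4 of the 14 fell, against 1.12%, 1.45% and 2.87% of all genes. At 6 h 2 rose, against 3.89% of all genes. Array medians lay between 6.219 and 6.403 at E10.5, apart from 3 h replicate 2 (5.997) and 6 h replicate 3 (6.018), and between 6.43 and 6.603 at E12.5. At E10.5 the mean of 7 measured placenta and decidua markers was high in 0 h replicates 2 and 3 (7.36 and 7.39) and in the 6 h arrays (5.01 to 7.14), and lay between 3.86 and 4.74 on all others (4.53 in 0 h replicate 1). The mean of 12 mesothelium markers, the lining of the body cavity at the base of the limb, was 7.02 to 7.43 at E10.5 0 h and 8.34 to 9.38 in the 9 cultured E10.5 arrays, with no overlap. At E12.5 it was 7.20 to 7.31 at 0 h and 7.45 to 7.88 at 3 h.

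All 7 measured genes had a higher mean in each of the 5 cultured groups than in the uncultured FBs of the same stage. Of all genes, 48.4%, 46.8% and 44.1% lay above 0 h after 1, 3 and 6 h at E10.5, and 50% and 50.9% after 1 and 3 h at E12.5. The level of all 7 differed among the 7 groups in limma's moderated F test (adjusted p from 8.17e-06 for *Axl* to 0.0388 for *Ankrd1*), as did that of 51.2% of all genes. The group means of a gene spanned 0.39 on the log2 scale in *Ajuba* and 1.64 in *Ccn1*. Here and below, values are log2 signals, a change is a difference of group means with its standard error (SE), and a gene is said to rise or fall where the adjusted p is below 0.05 (limma, Benjamini-Hochberg over all 14860 genes).

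**Figure D1:**
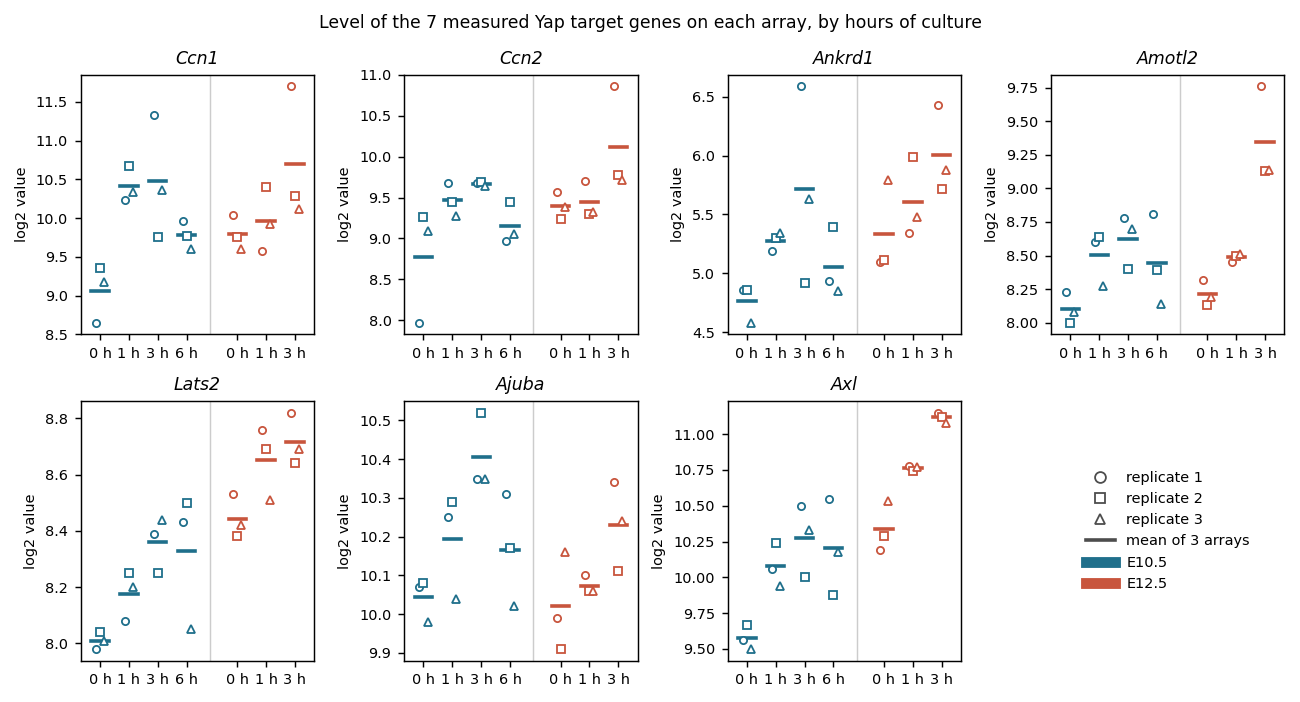
Level of each of the 7 measured genes (vertical axis, log2 value, with its own scale for each gene) on each of the 21 arrays, by hours of culture at E10.5 (blue, left) and E12.5 (red, right). Symbols are single arrays and bars are means of 3 arrays. All 7 genes had their lowest E10.5 mean at 0 h and their highest E10.5 mean at 3 h, and E12.5 3 h replicate 1 was the highest array of its group for all 7.

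*Ccn1* and *Ccn2* encode secreted matricellular proteins that bind integrins and growth factors. For *Ccn1* the 3 uncultured E10.5 arrays read 8.65, 9.35 and 9.17. After 1 h they read 10.23, 10.67 and 10.33, and after 3 h 11.33, 9.76 and 10.36. All arrays of both culture times lay above all 0 h arrays, and the 3 h arrays were the more scattered (SD 0.79 against 0.23, n = 3). At 6 h the arrays read 9.96, 9.77 and 9.60, still above 0 h and all below the 1 h arrays. At E12.5 the 0 h arrays read 10.04, 9.76 and 9.60, the 1 h arrays 9.57, 10.40 and 9.92, and the 3 h arrays 11.70, 10.29 and 10.12. The 1 h arrays overlapped with 0 h, and the 3 h arrays did not. In the order of its means, the lowest group (E10.5 0 h, 9.06) was apart from the next, and each of the other 6 groups overlapped with its neighbours.

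*Ccn2* ran a flatter course. Its 0 h values at E10.5 were 7.97, 9.26 and 9.09, the 1 h values 9.68, 9.45 and 9.27, and the 3 h values 9.68, 9.69 and 9.64. The 3 arrays at 3 h lay within 0.05 of each other, whereas 1 uncultured array, replicate 1, was well below the other two. That array was the uncultured E10.5 array with the lowest placenta and decidua mean (4.53). At 6 h the values were 8.97, 9.44 and 9.06, which overlapped with 0 h. At E12.5 they were 9.57, 9.24 and 9.39 without culture, 9.70, 9.30 and 9.32 after 1 h, and 10.86, 9.78 and 9.71 after 3 h. Only the 3 h arrays stood above the uncultured ones.

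*Ankrd1* encodes a nuclear ankyrin repeat protein of muscle and other cells and is a widely used reporter of Yap activity. Its log2 values lay between 4.58 and 6.59 on all arrays. Its mean of 5.394 was below the median of every array (5.997 to 6.603). *Ankrd1* was not among the genes kept in the fit without the lowest 30% of genes. At E10.5 it read 4.86, 4.86 and 4.58 without culture, 5.19, 5.30 and 5.34 after 1 h, 6.59, 4.92 and 5.63 after 3 h, and 4.93, 5.39 and 4.85 after 6 h of culture. The 1 h and 3 h arrays lay above all 0 h arrays, and the 6 h arrays overlapped with them. At E12.5 the values were 5.10, 5.11 and 5.79 without culture, 5.34, 5.99 and 5.48 after 1 h, and 6.43, 5.72 and 5.88 after 3 h. One uncultured array, replicate 3, reached above 3 h replicate 2, so that no E12.5 culture group was apart from 0 h. Each group of *Ankrd1* overlapped with its neighbours in the order of the means.

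*Amotl2*, *Lats2* and *Ajuba* encode proteins that act on the pathway itself. *Amotl2* encodes an angiomotin that binds Yap at cell junctions. At E10.5 it read 8.23, 8.0 and 8.08 without culture, 8.60, 8.64 and 8.27 after 1 h, 8.78, 8.40 and 8.70 after 3 h, and 8.81, 8.39 and 8.14 after 6 h of culture. At E12.5 it read 8.32, 8.13 and 8.19 without culture, 8.45, 8.50 and 8.51 after 1 h, and 9.76, 9.13 and 9.14 after 3 h. The 3 arrays of E12.5 3 h lay above all 18 other arrays, and the 6 other groups overlapped with their neighbours.

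*Lats2* encodes one of the Hippo kinases that phosphorylate Yap. Its E10.5 values were 7.98, 8.04 and 8.01 without culture, 8.08, 8.25 and 8.20 after 1 h, 8.39, 8.25 and 8.44 after 3 h, and 8.43, 8.50 and 8.05 after 6 h of culture. No cultured E10.5 array fell to the level of the uncultured ones. At E12.5 the values were 8.53, 8.38 and 8.42 without culture, 8.76, 8.69 and 8.51 after 1 h, and 8.82, 8.64 and 8.69 after 3 h. The 1 h arrays overlapped with 0 h by 1 array, and the 3 h arrays were apart.

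*Ajuba* encodes a LIM domain scaffold that inhibits the Lats kinases. Its range was the narrowest, from 9.91 to 10.52 over all arrays. At E10.5 it read 10.07, 10.08 and 9.98 without culture, 10.25, 10.29 and 10.04 after 1 h, 10.35, 10.52 and 10.35 after 3 h, and 10.31, 10.17 and 10.02 after 6 h of culture. The 3 h arrays of E10.5 stood above all 18 other arrays of the gene, but barely. The lowest of them read 10.347, against 10.344 in E12.5 3 h replicate 1. The E10.5 1 h and 6 h arrays overlapped with 0 h. At E12.5 the values were 9.99, 9.91 and 10.16 without culture, 10.10, 10.06 and 10.06 after 1 h, and 10.34, 10.11 and 10.24 after 3 h, with an overlap between 0 h and both culture times.

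*Axl* encodes a receptor tyrosine kinase bound by Gas6. It read 9.560, 9.672 and 9.504 without culture at E10.5, 10.065, 10.235 and 9.940 after 1 h, 10.501, 9.995 and 10.330 after 3 h, and 10.554, 9.876 and 10.180 after 6 h. At E12.5 it read 10.19, 10.29 and 10.53 without culture, 10.78, 10.74 and 10.77 after 1 h, and 11.15, 11.12 and 11.08 after 3 h. The 3 E12.5 groups did not overlap with each other, in the order of their hours. *Axl* also had the clearest order over all groups, in which the 3 cultured E10.5 groups overlapped among themselves and lay above E10.5 0 h.

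The comparison of 1 h with 0 h at E10.5 asks how fast the FBs respond once the embryo leaves the mother. No gene of the 7 was called by limma, against 3.91% of all genes. At an unadjusted p below 0.05, 4 of the 7 passed, against 17.2% of all genes, and the methods' t-test with Benjamini-Hochberg adjustment called none of the 7 and none of all 14860 genes. In 6 of the 7 the 3 cultured arrays lay above the 3 uncultured ones, which held for 13.5% of all genes, and *Ajuba* was the exception. *Ccn1* changed most, by 1.35 (SE 0.38, 2.54-fold, adjusted p = 0.059), and was higher than at 0 h in all 3 arrays. *Axl* differed by 0.50 (SE 0.15, adjusted p = 0.0728), and the median change of the 7 was 0.50 against -0.01 over all genes. Without 0 h replicate 1 the change of *Ccn2* went from 0.69 to 0.29. Markers of other cell types moved in the same comparison, and their part in these changes was not tested. Of 10 skeletal muscle markers 4 rose, with array means from 7.22 to 7.99 against 5.72 to 6.6 without culture. Of 12 mesothelium markers 8 rose and 1 fell, and of 7 placenta and decidua markers 3 fell. Of all genes 2.79% were called higher and 1.12% lower. The mean of 9 neuron markers was 9.24 in 1 h replicate 1 and 6.59 to 6.68 in the other two, and without replicate 1 no gene of the 7 was called either.

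After 3 h at E10.5, *Ccn1* rose by 1.42 (SE 0.38, 2.68-fold, adjusted p = 0.0415), *Axl* by 0.70 (SE 0.15, 1.62-fold, adjusted p = 0.013) and *Ajuba* by 0.37 (SE 0.10, 1.29-fold, adjusted p = 0.0448). The calls held 3 of the 7 genes, against 3.23% of all genes called higher. In all 7 genes the 3 h arrays lay above the 0 h arrays, which was so for 10.9% of all genes. The remaining 4 differed by 0.95 in *Ankrd1* (95% interval 0.28 to 1.61), 0.90 in *Ccn2* (0.27 to 1.52), 0.52 in *Amotl2* (0.15 to 0.89) and 0.35 in *Lats2* (0.12 to 0.58), with adjusted p from 0.0745 to 0.102. Only 0.559% of all genes changed upward more than *Ccn1*, and 10.7% more than *Lats2*, the least changed of the 7. *Cyr61*, the older name of *Ccn1*, is on a list of regulated genes that the study drew from these arrays, so its change is not independent of that list. A limma fit of the 2 groups alone, which called 79 of all genes higher and 3 lower, made none of the 3 calls. Neither did the unmoderated test with Benjamini-Hochberg adjustment, which called none of all genes. The calls also depended on single arrays. None was made without 3 h replicate 1 (*Ccn1* then changed by 1.00, *Axl* by 0.58 and *Ajuba* by 0.39) or without 0 h replicate 3, and the call of *Axl* alone was kept without 0 h replicate 1, 0 h replicate 2 or 3 h replicate 3. Without 3 h replicate 2 *Ankrd1* (change 1.34) was called beside *Ccn1* and *Axl*, and *Ajuba* was not. Without 3 h replicate 2 and 6 h replicate 3, the arrays of lowest median, 5 genes were called (*Ccn1*, *Ankrd1*, *Amotl2*, *Lats2* and *Axl*). The change of *Ankrd1* was 0.51 without 3 h replicate 1, and that of *Ccn2* was 0.50 without 0 h replicate 1.

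The RNA of markers of other cell types changed as well at E10.5. At 3 h, 8 of the 12 mesothelium markers rose, against 3.23% of all genes, and none fell. The uroplakin gene *Upk3b* went from a mean of 6.59 to 9.77 and the transcription factor gene *Wt1* from 7.76 to 9.12. *Msln* stayed low (4.96 and 4.50). With the mean of the mesothelium markers of each array as a covariate, no gene of the 7 was called at 3 h, *Ccn1* changed by -0.49 and *Axl* by -0.18. That covariate does not overlap between 0 h and culture at E10.5, so its part and that of culture cannot be told apart here. Of the 7 placenta and decidua markers, 2 fell at 3 h, against 1.45% of all genes, and none rose. With their mean as a covariate *Ccn2* alone was called, with a change of 1.76 (adjusted p = 0.00658, limma), and *Ccn1* differed by 1.71. Of the uncultured E10.5 arrays, only replicate 1 (4.53) lay near the 3 h arrays (3.87 to 4.35) in that mean. The same array had the lowest *Ccn2* value (7.97), so the part of this covariate and that of 1 array cannot be told apart.

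After 6 h at E10.5, *Axl* rose by 0.62 (SE 0.15, 1.54-fold, adjusted p = 0.0164) and was the only one of the 7 called, against 3.89% of all genes called higher. The call was lost without 0 h replicate 3 or 6 h replicate 1, with a change of 0.59 or 0.45, and *Lats2* joined *Axl* without 6 h replicate 3. None of the 7 was called by the unmoderated test with Benjamini-Hochberg adjustment (54 of all genes higher and 17 lower). The same held in a limma fit of the 2 groups alone (233 higher and 110 lower). With the mesothelium covariate *Axl* changed by -0.37. In this comparison 8 of 12 mesothelium markers rose and 1 fell, and 4 of 12 endothelium markers rose. Of 11 ectoderm markers 6 fell (array means from 7.99 to 8.83, against 9.20 to 9.26 without culture), against 2.87% of all genes called lower. The part of the ectoderm and endothelium in the change was not tested. The cultured arrays lay above the uncultured ones in 3 of the 7 (*Ccn1*, *Lats2* and *Axl*), as in 10.6% of all genes. *Lats2* differed by 0.32 (SE 0.11, adjusted p = 0.0912) and *Ccn1* by 0.72 (SE 0.38, adjusted p = 0.3). Between 1 h and 3 h none of the 7 was called, and neither was any other gene (0%), with 1 of the 7 at an unadjusted p below 0.05 (9.48% of all genes). Between 3 h and 6 h all 7 had a lower mean at 6 h, by 0.71 in *Ccn1*, 0.66 in *Ankrd1* and 0.51 in *Ccn2* and by 0.03 in *Lats2*, while 48.3% of all genes were higher. None was called by limma (2.27% of all genes were), 1 passed an unadjusted p below 0.05 (16.1% of all genes), and the arrays were apart for *Ccn2* and *Ajuba*, against 7.1% of all genes apart in that direction. The unmoderated test with Benjamini-Hochberg adjustment called none of all genes in either comparison. These E10.5 comparisons share arrays, so that 1 deviating array acts on several of them.

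**Figure D2:**
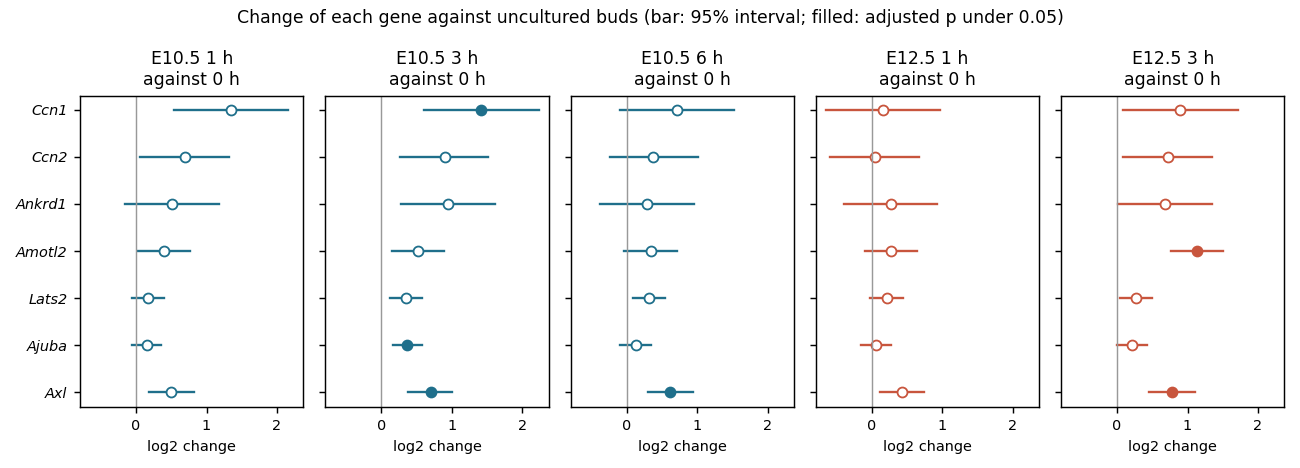
Change of each of the 7 genes against uncultured FBs of the same stage (horizontal axis, log2 change), 1 panel for each cultured group. Points are differences of 3-array means, bars are 95% intervals of limma's fit, and filled points have an adjusted p below 0.05. All 35 points lie above 0, and 6 are filled.

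At E12.5 the same question was asked at a later stage, when the digits form. After 1 h none of the 7 was called by limma, against 2.11% of all genes, and *Axl* alone passed an unadjusted p below 0.05, against 13.5% of all genes (change 0.43, SE 0.15, adjusted p = 0.186). The unmoderated test with Benjamini-Hochberg adjustment called none of the 7 and 1 of all genes. In *Axl* and *Amotl2* the 1 h arrays lay above those at 0 h, as in 13.9% of all genes. *Ccn1* and *Ccn2* differed by 0.16 (95% interval -0.65 to 0.97) and 0.04 (-0.59 to 0.67), and *Ccn2* turned to -0.09 without 1 h replicate 1 and to -0.04 without 0 h replicate 2.

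After 3 h at E12.5, *Amotl2* rose by 1.13 (SE 0.18, 2.18-fold, adjusted p = 0.000223) and *Axl* by 0.78 (SE 0.15, 1.72-fold, adjusted p = 0.00106), both in all 3 arrays. These were 2 of the 7, against 9.94% of all genes called higher, and 5 of the 7 had arrays apart from 0 h, against 22% of all genes. *Ccn1* differed by 0.90 (95% interval 0.09 to 1.71), *Ccn2* by 0.72 (0.09 to 1.35) and *Ankrd1* by 0.68 (0.01 to 1.34), with adjusted p of 0.0935, 0.0846 and 0.126. Replicate 1 was the highest of its group in all 7 genes and of all 21 arrays in 5. Without it *Amotl2* rose by 0.92 (adjusted p = 0.00124) and *Axl* by 0.76 (adjusted p = 0.00521), while *Ccn1* differed by 0.40, *Ccn2* by 0.35 and *Ankrd1* by 0.47. Without 3 h replicate 3 the calls also held *Ccn1* and *Ccn2*. At this stage 5 of the 12 mesothelium markers rose at 3 h. With their mean as a covariate the calls of *Amotl2* (change 0.89) and *Axl* (change 0.53) were kept. Here too the covariate did not overlap between 0 h (7.20 to 7.31) and 3 h (7.45 to 7.88). Its part and that of culture therefore cannot be told apart. Between 1 h and 3 h *Amotl2* rose by 0.86 (SE 0.18, adjusted p = 0.00571), 1 of the 7 against 3.28% of all genes, and the arrays of *Ccn2*, *Amotl2*, *Ajuba* and *Axl* were apart, as in 16.7% of all genes.

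**Figure D3:**
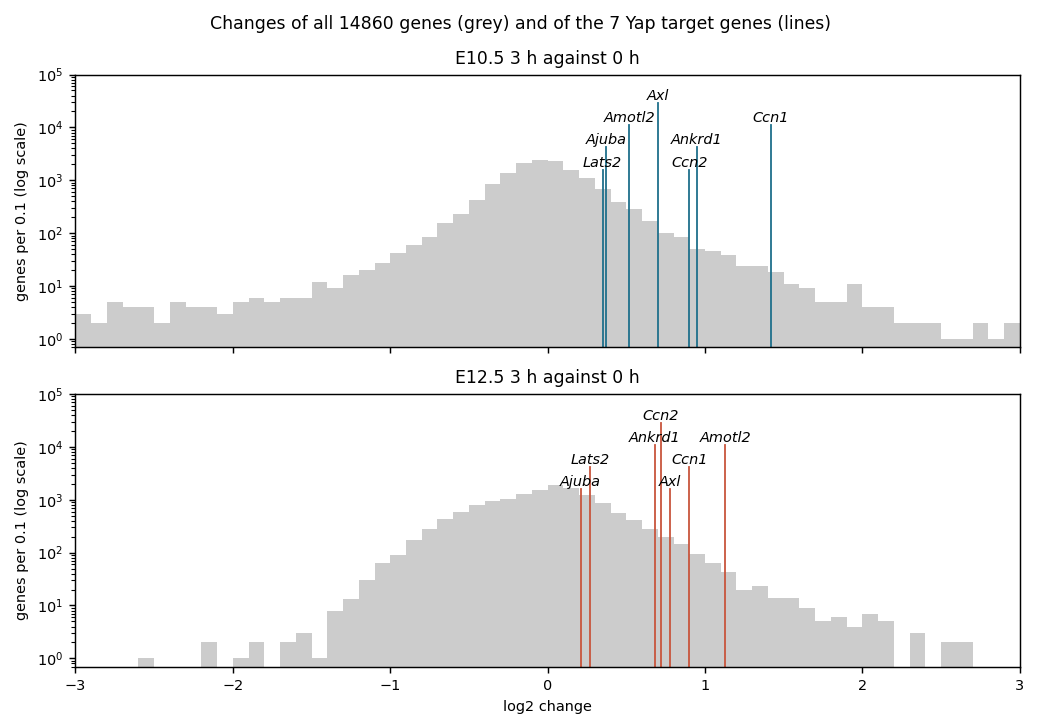
Distribution of the log2 changes of all 14860 genes after 3 h of culture (grey, number of genes in each step of 0.1 on a log axis, cut at 3 on both sides) with the 7 genes marked as lines (their height has no meaning), at E10.5 (upper panel) and E12.5 (lower panel). *Ccn1* lies farthest to the right at E10.5 (1.42) and *Amotl2* at E12.5 (1.13), and *Lats2* and *Ajuba* lie nearest to the bulk of the genes at both stages.

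Uncultured FBs of both stages were compared to show the starting levels. *Axl* was higher at E12.5 by 0.76 (SE 0.15, 1.69-fold, adjusted p = 0.00107) and *Lats2* by 0.44 (SE 0.11, 1.35-fold, adjusted p = 0.00621). They were 2 of the 7, against 19.7% of all genes called higher, and 4 of the 7 (*Ccn1*, *Ankrd1*, *Lats2* and *Axl*) had arrays apart, against 30.2%. *Amotl2* and *Ajuba* differed by 0.11 and -0.02. Moving all arrays to a common median shifted this comparison by -0.25 over all genes and turned the split of all calls from 2925 higher and 1098 lower to 1491 and 3628. Under that scaling *Axl* was still higher by 0.51 (adjusted p = 0.0176), *Lats2* was no longer called (0.19, adjusted p = 0.145) and *Amotl2* turned to -0.14.

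Whether the response to culture differed between the stages was tested as the E10.5 change minus the E12.5 change. No gene of the 7 was called at 1 h (0.538% of all genes were) or at 3 h (14.3% were), and 1 passed an unadjusted p below 0.05 at each time, against 11.4% and 30% of all genes. At 1 h this was *Ccn1*, with a difference of 1.19 (95% interval 0.05 to 2.33, adjusted p = 0.419, limma). At 3 h it was *Amotl2*, with -0.61 (-1.13 to -0.08, adjusted p = 0.111, limma). *Axl* differed between the stages by 0.08 (-0.37 to 0.52) at 1 h and by -0.08 (-0.53 to 0.37) at 3 h.

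The upstream genes were followed from a list of Hippo pathway genes and Yap partners, of which 20 of 28 were measured (*Tead1* and *Lats1* were not analysed here). *Yap1* was not called in any comparison, with group means between 10.72 and 10.98. *Wwtr1* read 8.56 to 8.70 at E10.5 0 h and 9.03 to 9.22 at 3 h and rose by 0.48 (SE 0.09, adjusted p = 0.00381). It was also higher at E12.5 0 h than at E10.5 0 h, by 0.63 (adjusted p = 3.05e-05). At E10.5 the scaffold gene *Sav1*, which activates the Hippo kinases, fell by 0.44 at 1 h (adjusted p = 0.0444) and by 0.46 at 3 h (adjusted p = 0.0303), and *Wwc2*, of the family that recruits the Lats kinases, rose by 0.41 at 3 h (adjusted p = 0.0447). Of the 20, 1 fell at 1 h, 2 rose and 1 fell at 3 h, and none was called by limma at 6 h, where 4 passed an unadjusted p below 0.05, near the 20.9% of all genes. Of all genes 1.12%, 1.45% and 2.87% were called lower at 1, 3 and 6 h. The fall of *Sav1* at 3 h was not called without the 2 arrays of lowest median (-0.43, adjusted p = 0.0673, limma) or at a common median (-0.44, adjusted p = 0.0686).

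At E12.5 none of the 20 was called by limma at 1 h, with 2 at an unadjusted p below 0.05 (13.5% of all genes). After 3 h, 6 rose and 3 fell, against 9.94% of all genes called higher and 17.6% called lower. *Tead2* rose by 0.58 (SE 0.11, adjusted p = 0.000773), from 10.76 to 11.06 at 0 h to 11.42 to 11.60 at 3 h, and *Tead3* by 0.54 (SE 0.15, adjusted p = 0.0133). *Mob1a*, a coactivator of the Lats kinases, fell by 0.52 (adjusted p = 0.00667) and *Frmd6*, an upstream activator, by 0.51 (adjusted p = 0.00358). With the arrays at a common median 7 rose and none fell. In the test of the difference between stages at 3 h, 3 of the 20 were called, against 14.3% of all genes. *Tead4* was not called in any comparison, with group means between 7.61 and 8.14.

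Of 22 further Yap target genes known from other cell types, 17 were measured. At E10.5, 4 rose after 1 h, 6 after 3 h and 6 after 6 h, against 2.79%, 3.23% and 3.89% of all genes called higher. None fell other than *Fjx1* at 6 h (change -0.54, adjusted p = 0.0089), a call lost at a common median (-0.47, adjusted p = 0.0679). *Edn1*, the precursor of the peptide endothelin, rose by 1.39, 1.96 and 1.02 in turn (adjusted p = 0.0113, 0.000634 and 0.0406). *Igfbp3*, a binding protein of insulin-like growth factors, rose by 0.94, 1.11 and 1.10 (adjusted p from 8.99e-05 to 0.00138). *Ccdc80*, a matrix protein gene, rose by 0.83, 1.10 and 1.67, and *Rbms3*, an RNA-binding protein gene, by 0.79, 0.81 and 1.24. The 11 other measured genes at 3 h were not called, and the median change of the 17 was 0.13 at that time, against 0.70 for the 7 genes above and -0.02 over all genes. At E12.5, *Igfbp3* and *Rbms3* rose after 1 h (0.71 and 0.49), against 1.29% of all genes called higher, and neither was called at a common median (adjusted p = 0.0863 and 0.0516). After 3 h 3 of the 17 rose and the survivin gene *Birc5* fell by 0.50 (adjusted p = 0.0041). Of all genes, 9.94% were called higher and 17.6% lower in this comparison.

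Relatives of the members moved in part. Of 7 measured genes of the Ccn family and the partners of Axl, 1 rose at E10.5 3 h and 2 at E12.5 3 h. At E10.5 6 h 1 rose and 2 fell. In these comparisons 3.23%, 9.94% and 3.89% of all genes were called higher, and 2.87% lower at E10.5 6 h. *Ccn3* rose at E10.5 3 h by 0.85 (adjusted p = 0.0353) and at E12.5 3 h by 0.98 (adjusted p = 0.00339). The receptor genes *Mertk* and *Tyro3*, of the same family as *Axl*, fell at E10.5 6 h by 0.69 (adjusted p = 0.000203) and 0.48 (adjusted p = 0.0406), when *Axl* rose. The fall of *Tyro3* was not called at a common median (-0.41, adjusted p = 0.0618) or without the 2 arrays of lowest median (-0.38, adjusted p = 0.106). *Ccn4* rose by 0.58 at 6 h (adjusted p = 0.0435).

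Actin and Srf target genes respond to the same mechanical cues, and 18 of 23 were measured. At E10.5 5, 4 and 3 of them rose after 1, 3 and 6 h, and at E12.5 5 rose after 1 h and 9 after 3 h, with none falling. The shares of all genes called higher were 2.79%, 3.23% and 3.89% at E10.5 and 1.29% and 9.94% at E12.5. *Acta2*, smooth muscle actin, rose by 2.63 at E10.5 1 h (adjusted p = 2.09e-06) and *Tagln* by 1.57 (adjusted p = 0.00138), and at E12.5 3 h *Tagln* rose by 1.67 (adjusted p = 0.000135) and *Zyx* by 0.82 (adjusted p = 0.000287). Both *Acta2* and *Tagln* also stand in the smooth muscle list, of which 3 of 9 genes rose at 3 h at each stage. Of 18 measured immediate early genes, 3 rose at E10.5 1 h, among them *Jun* by 1.75 (adjusted p = 5.8e-06) and *Atf3* by 2.30 (adjusted p = 0.00118), 2 rose and *Klf2* fell at 3 h (not called without the 2 arrays of lowest median), and 9 rose at E12.5 3 h, among them *Dusp1* by 1.46 (adjusted p = 0.000158).

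**Figure D4:**
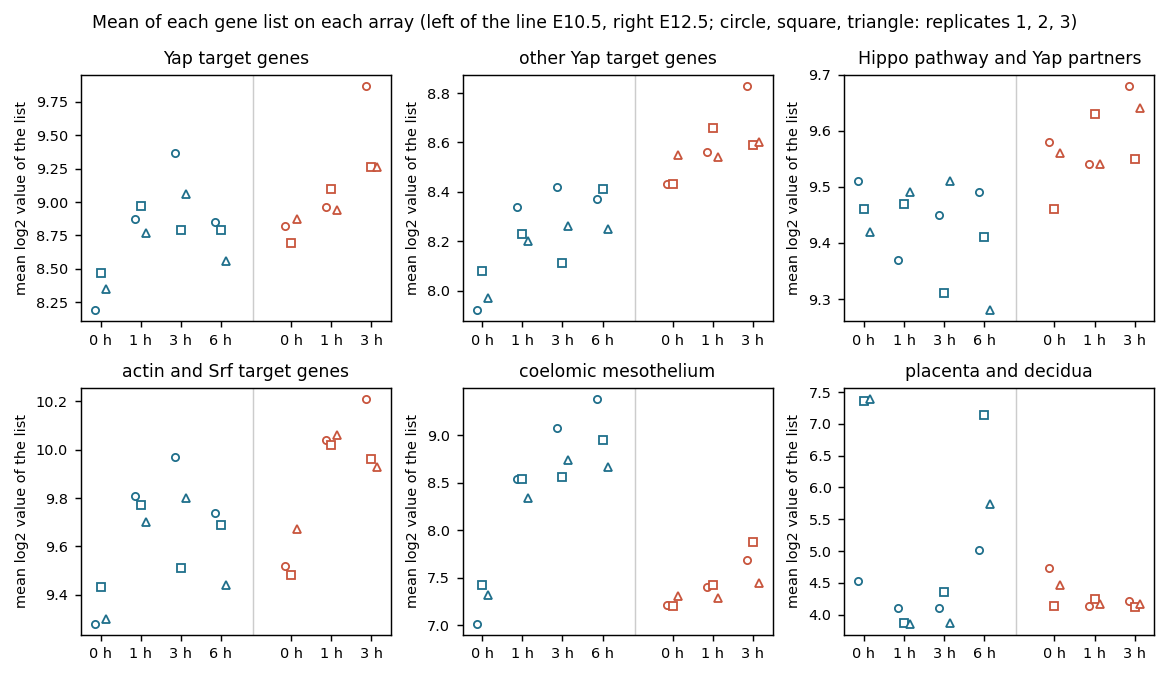
Mean log2 value of 6 gene lists (vertical axes with separate scales) on each array, by hours of culture. The mean of the 7 Yap target genes was 8.19 to 8.47 at E10.5 0 h and 8.77 to 8.97 at 1 h, the Hippo list stayed between 9.28 and 9.68 on all arrays, and the mesothelium and placenta means separated E10.5 arrays as given in the text.

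How alike the members were across arrays differed between pairs. Over the 21 arrays, which share their 7 group means, Pearson's r between members ran from 0.17 (*Lats2* with *Ajuba*) to 0.86 (*Lats2* with *Axl*). After the group means were taken away it ran from -0.08 (*Ccn2* with *Axl*) to 0.69 (*Ccn1* with *Ankrd1*). It was then 0.65 for *Ccn1* with *Amotl2* and 0.10 for *Lats2* with *Axl*. The gene with the profile most like that of *Axl* was *Col1a1*, a fibrillar collagen gene (r = 0.96), followed by *Col5a1* and *Ccn4* (both 0.95). *Ankrd1* was most like *Icam1* (0.89), followed by *Dusp10* (0.85) and *Wwc2* (0.84), and *Amotl2* was most like *Calcoco1* (0.93), followed by *Armcx2* (0.91) and *Robo4* (0.90). *Ccn1* was followed by *Rln1* (0.86), *Acer2* (0.84) and *Actn4* (0.82), *Ccn2* by *Bsdc1* (0.85), *Ugcg* and *Gab2* (both 0.83), *Lats2* by *Adcy4*, *Vsnl1* and *Nfic* (all 0.93), and *Ajuba* by *Sv2a* (0.80), *F2r* (0.78) and *F11r* (0.77).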

How the data were processed

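Total RNA was labelled and hybridised to 1-colour exon arrays, and the authors summarised the probes to log2 values with RMA in Affymetrix Expression Console, as deposited. The version and the genome build are not given in the sources used here. The table holds 23332 features on 21 arrays, and precision is limited by the 3 arrays in each group. Features annotated to 1 gene (14996) were renamed through RefSeq gene identifiers (14941 matched), and the feature with the highest mean was kept for each gene (14860). Means of the 7 groups were fitted in limma 3.58.1 (R 4.3.3) with 14 residual degrees of freedom, Benjamini-Hochberg adjustment over all genes and a threshold of 0.05, and the code was tested on simulated data. Named were all members, *Yap1*, *Wwtr1* and the Tead genes, up to 4 called genes with the largest change per list and comparison, and the 3 genes most correlated with each member. *Fjx1*, *Fstl1*, *Upk3b*, *Wt1* and *Msln* were added after their values were seen, as were list genes named at further times. The members and lists were chosen with earlier results of these data known. Alternatives changed the scaling, filter, feature choice, test, threshold and arrays. 2 covariate fits and the fit without the 2 arrays of lowest median were chosen after seeing the data.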

Additional observations from a re-analysis of the deposited data

Results flagged for a closer look

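In 8 genes of the Hippo and further Yap target lists, the change after 3 h of culture differed between E10.5 and E12.5 in the test of the difference itself (limma, E10.5 change minus E12.5 change). *Ccdc80* differed by 1.29 (adjusted p = 9.37e-05), with a change of 1.10 at E10.5 and -0.19 at E12.5. *Edn1* differed by 1.54 (adjusted p = 0.02), with 1.96 and 0.42, and *Fstl1*, a secreted glycoprotein gene, by 0.46 (adjusted p = 0.015), with 0.48 and 0.02. The Tead gene *Tead2* differed by -0.61 (adjusted p = 0.0157), with -0.03 at E10.5 and 0.58 at E12.5, and *Limd1*, of the Ajuba family, by -0.48 (adjusted p = 0.0262), with -0.17 and 0.31. *Mob1a* differed by 0.59 (adjusted p = 0.0432), with 0.07 and -0.52, and was not called at a common median (0.56, adjusted p = 0.161) or without the 2 arrays of lowest median (0.47, adjusted p = 0.0902). *Fgf1*, a fibroblast growth factor gene, differed by -0.81 (adjusted p = 0.00305), with -0.36 and 0.45, and *Dock5*, a guanine nucleotide exchange factor gene, by -1.11 (adjusted p = 0.0434), with -0.49 and 0.62, although neither change of *Dock5* alone passed the test. *Fstl1* was not called at a common median (0.43, adjusted p = 0.133), nor *Dock5* without the 2 arrays of lowest median (-0.85, adjusted p = 0.0528). These are 3 of 20 Hippo genes and 5 of 17 further targets. None of the 7 Yap target genes themselves was called in this test, against 14.3% of all genes.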

How the results depend on the processing

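Of 9 called changes of the 7 genes, 3 kept their call and direction in all alternatives of their comparison (*Amotl2* and *Axl* at E12.5 3 h, and *Axl* between the uncultured stages), and 6 lost the call in at least 1. Of 35 changes against 0 h, 20 turned below 0 with the mesothelium covariate, among them the called *Ccn1* (-0.49) and *Axl* (-0.18) at E10.5 3 h and *Axl* at 6 h (-0.37), and 3 in any other alternative. The cause was not tested. At E10.5 1 h, 0 genes were called as reported, and 1 with a common median, quantile normalization, without the lowest 30% of genes or with the placenta covariate. There were 2 with trend and robust options, array weights, an unadjusted p below 0.01 or without the 2 arrays of lowest median. The unmoderated test at that unadjusted p called 3. At E10.5 3 h the 3 calls became 5 with a common median or without those 2 arrays and 6 with quantile normalization or array weights. They became 7 at an unadjusted p below 0.01 and 1 over all features of the table or with the placenta covariate. The count was 0 with only the groups compared, an adjusted p below 0.01, the unmoderated test after Benjamini-Hochberg or the mesothelium covariate. At E10.5 6 h the 1 call became 2 with a common median, quantile normalization, array weights, an unadjusted p below 0.01 or without those 2 arrays. It became 0 with only the groups compared, an adjusted p below 0.01, either threshold of the unmoderated test or the mesothelium covariate. Between 3 h and 6 h the placenta covariate called 1, and at E12.5 1 h array weights called 1. At E12.5 3 h the 2 calls became 4 with a common median or array weights and 5 with quantile normalization, and against 1 h the 1 call became 2 with array weights, only the groups compared or the placenta covariate. Between the uncultured stages a common median left 1 of 2, and for the difference between stages at 3 h quantile normalization or the mesothelium covariate called 1. Over the 7 groups 3 genes varied at an adjusted p below 0.01 and 4 at an unadjusted p below 0.01. Leaving out each array gave 0 to 3 calls at E10.5 3 h, 0 to 2 at E10.5 6 h and 2 to 4 at E12.5 3 h, and 5 to 7 genes varying over the 7 groups. A fit left with 2 arrays in a group takes their spread from all groups.

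The replicate numbers showed little pairing of the arrays on average (mean r = 0.01 over 63 same-numbered pairs and -0.01 over 126 others, from -0.20 to 0.33 in the former). An r above 0.1 was found in 12 of the 63 pairs and in 13 of the 126. The 2 means are not independent, because the group means were taken away first. With a replicate block 0 genes were called at E10.5 1 h, 2 at E10.5 3 h (*Ajuba* at an adjusted p of 0.0537), 1 at E10.5 6 h, 2 at E12.5 3 h, 1 between 1 h and 3 h at E12.5 and 2 between the stages, and 6 varied over the 7 groups. Over all genes the calls at E10.5 3 h (696) ran from 0 by the unmoderated test after Benjamini-Hochberg to 2670 with array weights. At E12.5 3 h (4086) they ran from 2470 at an adjusted p below 0.01 to 5951 with array weights. A common median moved the share of calls that were higher from 71.3% to 55.7% at E10.5 1 h, from 60.8% to 77% at E12.5 1 h, from 36.1% to 49.5% at E12.5 3 h, from 28.6% to 52.8% for E12.5 3 h against 1 h, and from 72.5% to 52.2% and 66.1% to 45.2% for the differences between stages at 1 h and 3 h.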
